A study of Rattus norvegicus with 16 samples.

Results

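Cholesterol synthesis and sterol handling in cultured rat islets were followed through 30 genes, listed by name with earlier results of these data known. They were enzymes of the mevalonate pathway and of sterol synthesis, the SREBP control system, and genes of sterol transport, storage and export. Of the 30, 28 were measured among 14217 genes, each by the probe set (a group of array probes for 1 transcript) of highest mean over the arrays. Hmgcs1 and Npc1 were not analysed here. The study delivered Nkx6.1, a transcription factor of beta cells, by adenovirus to isolated primary islets of male Wistar rats aged 8 weeks, and measured RNA on 1-colour expression arrays. The groups were AdNkx6.1 (adenovirus with Nkx6.1, n = 5 arrays), Adβgal (adenovirus with the bacterial enzyme β-galactosidase, the control virus, n = 6) and untreated islets (no virus, n = 5). All islets were kept in medium with 8 mM glucose and 10% serum. Virus was added at about 2e+09 particles per ml, washed off after 18 h, and RNA taken 48 h after its addition. The protocol states 5 replicates for each condition, and the table holds 6 Adβgal arrays, all used. According to the titles, replicates are biological. The promoter driving the delivered gene, the share of cells that took up virus and whether islets of several rats were pooled are not given in the sources used here.

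Cells build cholesterol from acetyl-CoA. The mevalonate pathway makes the isoprenoid farnesyl diphosphate, squalene synthase commits it to sterols, and a chain of enzymes in the endoplasmic reticulum turns lanosterol into cholesterol. When membrane sterol is ample, the Insig proteins hold the escort Scap and its cargo, the SREBP transcription factors, in the endoplasmic reticulum. When sterol is scarce, the SREBPs travel to the Golgi, are cleaved and activate the synthesis genes. In beta cells membrane cholesterol affects insulin secretion, and in mice loss of the exporter ABCA1 from beta cells impairs it.

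Insulin, glucagon and somatostatin genes were bright on every array, with log2 intensities of at least 14.43 for Ins1, 14.43 for Gcg and 13.9 for Sst. The Nkx6-1 probe set was lower on AdNkx6.1 than on Adβgal arrays (log2 change -0.46, adjusted p = 0.0023). Whether it can read the delivered transcript is not given in the sources used here, so it does not check the labels, and the groups below are those of the labels. Array median intensities lay between 264.8 and 296.2. Adβgal replicates 4, 5 and 6 had the highest acinar marker medians. The median deviation of 12 acinar cell markers from their untreated mean was -1.06 to 0.72 (log2) on AdNkx6.1 arrays, -0.78 to 0.65 on Adβgal replicates 1 to 3, 2.00, 1.31 and 1.49 on Adβgal replicates 4, 5 and 6, and -0.43 to 0.36 on untreated arrays. Results without these 3 arrays are given below.

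The promoters of 6 members are shown as examples of both directions, picked after their values were seen: Mvk, Tm7sf2 and Mvd were higher with AdNkx6.1 than in untreated islets, and Idi1, Hsd17b7 and Msmo1 were lower. Each line is the 180 bases just before the transcription start, 5′ to 3′ on the gene's strand, from RefSeq on GRCr8. Capitals mark CCAAT in either orientation (ATTGG is CCAAT on the opposite strand), the element bound by NF-Y, a factor known to act with SREBPs at sterol genes. The windows are chr12:47819504-47819683 (minus strand) for Mvk, chr1:212789542-212789721 (minus) for Tm7sf2, chr19:67414975-67415154 (minus) for Mvd, chr17:66547525-66547704 (minus) for Idi1, chr13:84722755-84722934 (minus) for Hsd17b7 and chr16:29746933-29747112 (plus) for Msmo1.
Mvk: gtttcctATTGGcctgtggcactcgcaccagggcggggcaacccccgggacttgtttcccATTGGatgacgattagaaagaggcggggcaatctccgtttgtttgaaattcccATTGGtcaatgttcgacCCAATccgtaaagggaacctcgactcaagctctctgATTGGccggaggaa
Tm7sf2: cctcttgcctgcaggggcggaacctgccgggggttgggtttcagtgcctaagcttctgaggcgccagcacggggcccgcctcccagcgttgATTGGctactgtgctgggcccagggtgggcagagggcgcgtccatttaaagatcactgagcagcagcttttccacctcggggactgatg
Mvd: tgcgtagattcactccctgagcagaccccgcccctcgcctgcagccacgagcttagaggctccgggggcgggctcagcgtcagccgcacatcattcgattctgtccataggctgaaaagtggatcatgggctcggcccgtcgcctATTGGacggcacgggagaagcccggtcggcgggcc
Idi1: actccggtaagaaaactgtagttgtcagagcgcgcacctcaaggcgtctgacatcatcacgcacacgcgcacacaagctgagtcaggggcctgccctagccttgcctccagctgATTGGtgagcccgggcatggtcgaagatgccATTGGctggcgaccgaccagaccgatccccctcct
Hsd17b7: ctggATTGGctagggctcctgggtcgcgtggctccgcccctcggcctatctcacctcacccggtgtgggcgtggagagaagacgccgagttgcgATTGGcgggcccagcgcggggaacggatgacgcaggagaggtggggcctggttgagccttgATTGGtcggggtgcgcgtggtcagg
Msmo1: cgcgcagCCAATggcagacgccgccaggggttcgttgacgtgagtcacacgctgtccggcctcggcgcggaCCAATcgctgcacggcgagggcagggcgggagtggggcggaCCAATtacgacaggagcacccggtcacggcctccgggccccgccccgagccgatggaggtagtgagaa

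Mvk held 5 CCAAT elements in this window, Hsd17b7 and Msmo1 3 each, Idi1 2, and Tm7sf2 and Mvd 1 each. The element thus stood in genes that were higher and in genes that were lower with AdNkx6.1. RefSeq windows of 250 bases before to 50 after the start were at hand for 23 of the 28 measured members. Pmvk, Fdft1, Sqle, Stard4 and Abcg1 had no entry. CCAAT on either strand stood in 18 of the 23 (78.3%), against 37.5% of all 33469 promoters and 38.6% of those of 11733 tested genes. The E-box CACGTG, which reads the same on both strands, stood in Abca1, Insig1, Sc5d and Scap, 4 of 23 (17.4%), against 6.42% of all promoters and 9.35% of those of tested genes. The letters TCACNCCAC, a form of the sterol regulatory element searched on both strands, stood in 0 of 23 against 1.12% of all promoters. None of the 3 motifs contains another, and a match is a description of sequence, not of binding.

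**Figure D1:**
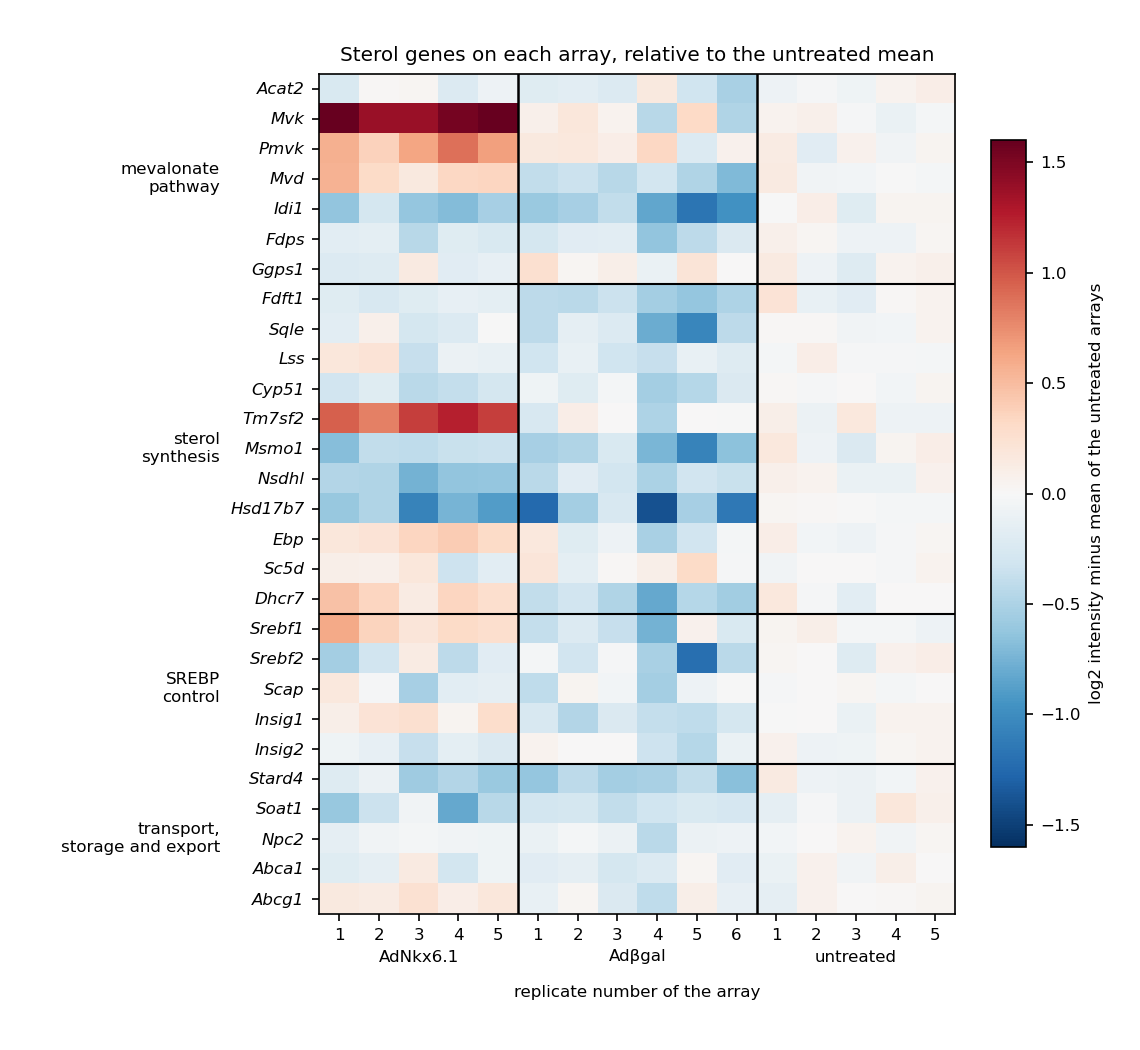
Each row is 1 of the 28 measured sterol genes and each column 1 array; colour is log2 intensity minus the mean of the untreated arrays, red above and blue below. Mvk and Tm7sf2 are red on all 5 AdNkx6.1 arrays, and Idi1, Msmo1 and Hsd17b7 are blue on all 5 AdNkx6.1 and all 6 Adβgal arrays.

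AdNkx6.1 against Adβgal asks how islets given the factor differ from islets given the control virus. Of the 28 members, 11 were higher and 1 was lower with AdNkx6.1, and 16 did not pass. A gene was called where limma's adjusted p, over all 14217 genes, was under 0.05. In this comparison 16.6% of all genes were called higher and 8.48% lower, and the members' shares were 39.3% and 3.57%. Since the list was made with earlier results of these data known, such shares, here and below, are descriptive. The median log2 change of the members was 0.17, against 0.02 over all genes. The AdNkx6.1 and Adβgal arrays did not overlap for 10 members, all higher with AdNkx6.1 (10.4% of all genes), and for 0 lower (3.78% of all genes). In whole islets, fewer cells of a type and less RNA per cell cannot be told apart.

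In the mevalonate pathway 3 of 7 measured enzymes rose: Mvk, Pmvk and Mvd, which act one after another on mevalonate. Mvk, mevalonate kinase, had log2 intensities of 9.96, 9.72, 9.71, 9.87 and 9.93 with AdNkx6.1, against a lowest of 7.85, a median of 8.40 and a highest of 8.65 with Adβgal. The lowest AdNkx6.1 array thus lay above the highest Adβgal array by more than the range within either group. The change was 1.55 ± 0.13 (log2 ± SE), or 2.93-fold, with adjusted p = 3.5e-07. The other 2 Mvk probe sets, tested on their own, gave 1.59 and 1.77.

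Pmvk, phosphomevalonate kinase, had 11.24, 11.05, 11.31, 11.56 and 11.33 with AdNkx6.1, against a lowest of 10.46, a median of 10.81 and a highest of 11.01 with Adβgal. The groups were close but did not overlap, and the change was 0.52 ± 0.10 (adjusted p = 0.0013). Mvd, mevalonate diphosphate decarboxylase, had 10.16, 9.91, 9.76, 9.94 and 9.95 with AdNkx6.1, against 8.90, 9.19 and 9.31 (lowest, median and highest) with Adβgal. All its AdNkx6.1 arrays were higher, by 0.78 ± 0.08 (1.72-fold, adjusted p = 4.4e-06). The enzymes before and after these steps did not pass. Acat2, the acetoacetyl-CoA thiolase, changed by 0.11 ± 0.10. The isomerase Idi1 gave 0.20 ± 0.13, the farnesyl diphosphate synthase Fdps 0.08 ± 0.09, and the geranylgeranyl diphosphate synthase Ggps1 -0.20 ± 0.09.

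In sterol synthesis 5 of 11 enzymes rose and 1 fell. Tm7sf2, a sterol C14 reductase, had 10.60, 10.45, 10.76, 10.89 and 10.75 with AdNkx6.1, against 9.16, 9.65 and 9.76 (lowest, median and highest) with Adβgal. The groups were far apart, with a change of 1.15 ± 0.11 (2.21-fold, adjusted p = 1.4e-06). Dhcr7, which carries out the last step of the branch through 7-dehydrocholesterol, had 10.68, 10.56, 10.34, 10.56 and 10.48 with AdNkx6.1, against 9.40, 9.74 and 9.91 with Adβgal. It too separated the groups, by 0.81 ± 0.09 (1.76-fold, adjusted p = 7.4e-06).

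The other 3 enzymes that rose moved less. The sterol isomerase Ebp changed by 0.45 ± 0.10 (adjusted p = 0.003), with AdNkx6.1 arrays at 10.92 to 11.15 and Adβgal arrays at 10.23 to 10.91. Squalene synthase, Fdft1, changed by 0.29 ± 0.07 (adjusted p = 0.009), and its groups did not overlap; the mean of its probe sets gave 0.19 (adjusted p = 0.079). Squalene epoxidase, Sqle, changed by 0.39 ± 0.13 (adjusted p = 0.046), with overlapping groups. With AdNkx6.1, mean Fdft1 (11.23) and mean Sqle (11.55) still lay below their untreated means (11.41 and 11.67). Sqle lost its call when any 1 array was left out other than Adβgal 2, Adβgal 3 or AdNkx6.1 3 (adjusted p of 0.051 to 0.11). Without Adβgal replicates 4 to 6 together its change was 0.14 (adjusted p = 0.27) and that of Fdft1 0.21 (adjusted p = 0.072).

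Nsdhl, which takes part in removing the C4 methyl groups, was the member that fell. It had 9.90, 9.89, 9.61, 9.74 and 9.75 with AdNkx6.1, against 9.86, 10.04 and 10.19 (lowest, median and highest) with Adβgal. The groups overlapped, and the change of -0.25 ± 0.07 (adjusted p = 0.023) lost its call without AdNkx6.1 replicate 3, 4 or 5 (adjusted p of 0.054 to 0.062) and in a fit of these 2 groups alone (adjusted p = 0.06). Its partners in C4 demethylation did not pass, with 0.18 ± 0.12 for the oxidase Msmo1 and 0.09 ± 0.18 for the reductase Hsd17b7. Lanosterol synthase, Lss, gave 0.21 ± 0.09, the demethylase Cyp51 -0.06 ± 0.09 and the desaturase Sc5d -0.10 ± 0.10. A second Cyp51 probe set, tested on its own, was lower with AdNkx6.1 (-0.265, adjusted p = 0.024). Without AdNkx6.1 replicate 3, Lss (0.29, adjusted p = 0.019) and Ggps1 (-0.26, adjusted p = 0.034) passed.

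Of the 5 SREBP control genes, 2 rose. Srebf1, which encodes SREBP-1, had 10.41, 10.16, 10.00, 10.11 and 10.07 with AdNkx6.1, against 9.05, 9.50 and 9.87 (lowest, median and highest) with Adβgal. The groups did not overlap, and the change was 0.66 ± 0.11 (1.58-fold, adjusted p = 0.00045). Its second probe set, tested on its own, gave 0.75 (adjusted p = 0.0047). Insig1, the retention protein whose own gene is an SREBP target, had 12.70, 12.82, 12.86, 12.66 and 12.89 with AdNkx6.1, against 12.14, 12.28 and 12.38 with Adβgal. All AdNkx6.1 arrays were higher, by 0.52 ± 0.07 (adjusted p = 2.8e-05). Srebf2, which encodes SREBP-2, gave 0.15 ± 0.18, Scap 0.03 ± 0.12 and Insig2 -0.05 ± 0.09, and none of these 3 passed.

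Among the 5 genes of transport, storage and export, Abcg1 alone passed. This sterol exporter had 12.79, 12.77, 12.88, 12.74 and 12.81 with AdNkx6.1, against 12.22, 12.51 and 12.73 (lowest, median and highest) with Adβgal, a change of 0.29 ± 0.08 (adjusted p = 0.015). Its groups lay side by side without overlap. The exporter Abca1 changed by 0.05 ± 0.08, the lysosomal carrier Npc2 by 0.07 ± 0.07, the cytosolic sterol carrier Stard4 by 0.14 ± 0.09 and the acyltransferase Soat1, which makes cholesteryl esters for storage, by -0.15 ± 0.11.

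**Figure D2:**
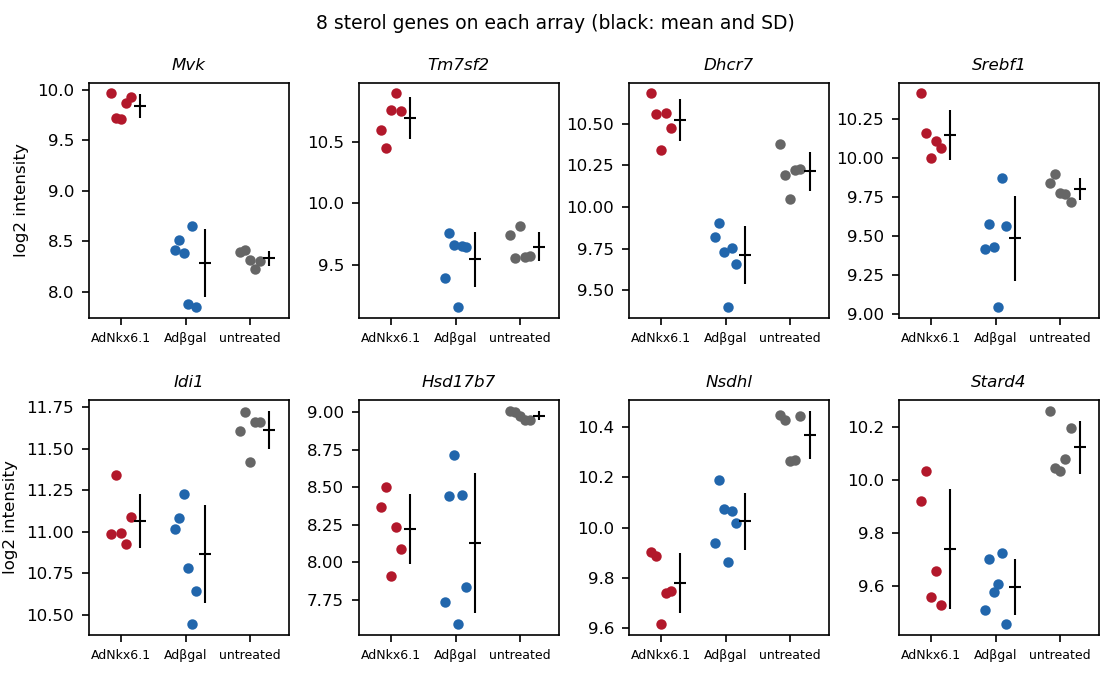
Log2 intensity of 8 sterol genes on every array, 1 point per array, with the mean and SD in black; each panel has its own vertical axis. Mvk, Tm7sf2, Dhcr7 and Srebf1 are higher on all AdNkx6.1 than on all Adβgal arrays, and Idi1, Hsd17b7, Nsdhl and Stard4 are lower on all Adβgal than on all untreated arrays.

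Without Adβgal replicates 4 to 6, 9 members were higher and 3 lower with AdNkx6.1; Cyp51 (-0.22, adjusted p = 0.022) and Insig2 (-0.21, adjusted p = 0.043) joined Nsdhl. Mvk, Tm7sf2, Dhcr7, Mvd, Pmvk, Ebp, Srebf1, Insig1 and Abcg1 were the 9. The shares of all genes called without these arrays are not given here, so these counts have no background beside them. In the full comparison the median log2 change of the 12 acinar markers was -1.07, with 2 called, both lower, and their summed intensity was 21074 to 48696 with AdNkx6.1 and 19346 to 87398 with Adβgal. Of 5 duct markers 2 were higher. The summed intensity of the 5, in which bright genes weigh most, did not overlap, at 32492 to 36250 with AdNkx6.1 and 24212 to 30038 with Adβgal. Their median deviations from untreated did overlap, at 0.14 to 0.30 with AdNkx6.1 and -0.17 to 0.32 with Adβgal. Mean Cftr was lower with AdNkx6.1 (4.68 against 5.25) and mean Krt19 nearly equal (10.84 and 10.85). Of 4 other endocrine markers 2 were lower, with a median change of -0.18. The part of these lists in the members' changes was not tested.

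The comparison of Adβgal with untreated islets asks for the effect of receiving a virus without the factor. Of the 28 members, 0 were higher and 11 were lower with Adβgal, and 17 did not pass. Over all genes 2.84% were called higher and 4.17% lower, and the members' share called lower was 39.3%. The median log2 change of the members was -0.28, against -0.04 over all genes, and 25 of the 28 changes were below 0. For 13 members every Adβgal array lay below every untreated array (4.83% of all genes), and for 0 above (2.05%). At an unadjusted p under 0.05 limma likewise gave 0 members higher; Pmvk, Ggps1 and Sc5d had changes above 0.

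Of the 18 enzymes 9 fell: Mvd, Idi1, Fdps, Fdft1, Sqle, Msmo1, Nsdhl, Hsd17b7 and Dhcr7. The first 3 measured steps, Acat2 (-0.21 ± 0.10), Mvk and Pmvk, did not pass, nor did Ggps1, Lss, Cyp51, Tm7sf2, Ebp and Sc5d. Hsd17b7 had a lowest of 7.59, a median of 8.14 and a highest of 8.72 with Adβgal, against 9.01, 9.00, 8.98, 8.95 and 8.95 in untreated islets. The untreated arrays were nearly alike and the Adβgal arrays widely spread, all below them, with a change of -0.85 ± 0.18 (1.80-fold lower, adjusted p = 0.011). Without Adβgal replicates 4 to 6 its change was -0.68 (adjusted p = 0.053). Idi1, the isomerase that supplies dimethylallyl diphosphate, had 10.44, 10.90 and 11.22 with Adβgal, against 11.61, 11.72, 11.42, 11.66 and 11.66 in untreated islets. All its Adβgal arrays were lower, with a change of -0.75 ± 0.13 (1.68-fold lower, adjusted p = 0.003).

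Msmo1 had 10.25, 10.73 and 11.07 (lowest, median and highest) with Adβgal, against 11.49, 11.24, 11.09, 11.36 and 11.42 in untreated islets, a change of -0.62 ± 0.12 (adjusted p = 0.0077). The highest Adβgal array came close to the lowest untreated array without reaching it. Dhcr7 changed by -0.50 ± 0.09 (adjusted p = 0.0046), Fdft1 by -0.47 ± 0.07 (adjusted p = 0.0022), Mvd by -0.44 ± 0.08 (adjusted p = 0.0058) and Nsdhl by -0.35 ± 0.07 (adjusted p = 0.012). In each of these 4 all Adβgal arrays lay below all untreated arrays. Sqle changed by -0.51 ± 0.13 (adjusted p = 0.033) and Fdps by -0.32 ± 0.09 (adjusted p = 0.038), the weakest of the 11 calls. Sqle lost its call without any 1 untreated array or Adβgal 4 or 6, and Fdps without any 1 untreated array, Adβgal 5, Adβgal 6 or AdNkx6.1 5. Without Adβgal replicates 4 to 6 together, Sqle was at -0.26 (adjusted p = 0.12), Fdps at -0.21 (adjusted p = 0.13) and Nsdhl at -0.30 (adjusted p = 0.065). In that fit 7 members were lower, and over all genes 552 were called in either direction, against 997 with all arrays.

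Outside the enzymes 2 members fell. Stard4 had 9.45, 9.59 and 9.72 (lowest, median and highest) with Adβgal, against 10.26, 10.05, 10.03, 10.08 and 10.20 in untreated islets. The groups were well apart, with a change of -0.53 ± 0.09 (adjusted p = 0.0042). Insig1 changed by -0.34 ± 0.07 (adjusted p = 0.0072), again with no overlap. Soat1 (-0.30 ± 0.11, adjusted p = 0.092) and Lss (-0.24 ± 0.09, adjusted p = 0.13) had separate groups but did not pass. Mvk (-0.05 ± 0.13), Tm7sf2 (-0.10 ± 0.11) and Pmvk (0.10 ± 0.10) did not pass, and their groups overlapped. The remaining 12 members that did not pass had changes of -0.42 (Srebf2) to 0.08 (Ggps1 and Sc5d). Cyp51 passed without Adβgal 3 (-0.30, adjusted p = 0.048), Srebf1 without Adβgal 5 (-0.39, adjusted p = 0.027) and Soat1 without AdNkx6.1 3 (-0.30, adjusted p = 0.043).

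On single arrays the median deviation of the 18 synthesis enzymes from their untreated means was -0.17, 0.05, -0.08, -0.18 and -0.12 (log2) on AdNkx6.1 arrays. It was -0.30, -0.18 and -0.22 on Adβgal replicates 1 to 3 and -0.51, -0.37 and -0.39 on replicates 4 to 6, against -0.06 to 0.08 on untreated arrays. All 6 Adβgal arrays thus lay below all untreated arrays. The 3 Adβgal arrays with the lowest enzyme medians were those with the highest acinar marker values. Over all 28 members the 3 lowest were replicates 4 (-0.50), 5 (-0.31) and 1 (-0.27), with replicate 6 at -0.25. Summed acinar marker intensity ran from 19346 to 87398 on Adβgal arrays, against 24197 to 37837 on untreated arrays, and summed leukocyte marker intensity (10 of 10 markers) from 9411 to 18267, against 9844 to 11903. On their lowest arrays the dimmest markers of these lists, Ptf1a (acinar) and Itgam (leukocyte), had log2 intensities of 5.17 and 4.66. Adβgal replicates 1 to 3 also had lower sterol medians than every untreated array. Their acinar medians were 0.09, -0.78 and 0.65, against -0.43 to 0.36 on untreated arrays. Of these, only that of replicate 1 lay within the untreated range. The part of the marker lists in the sterol values was not tested.

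**Figure D3:**
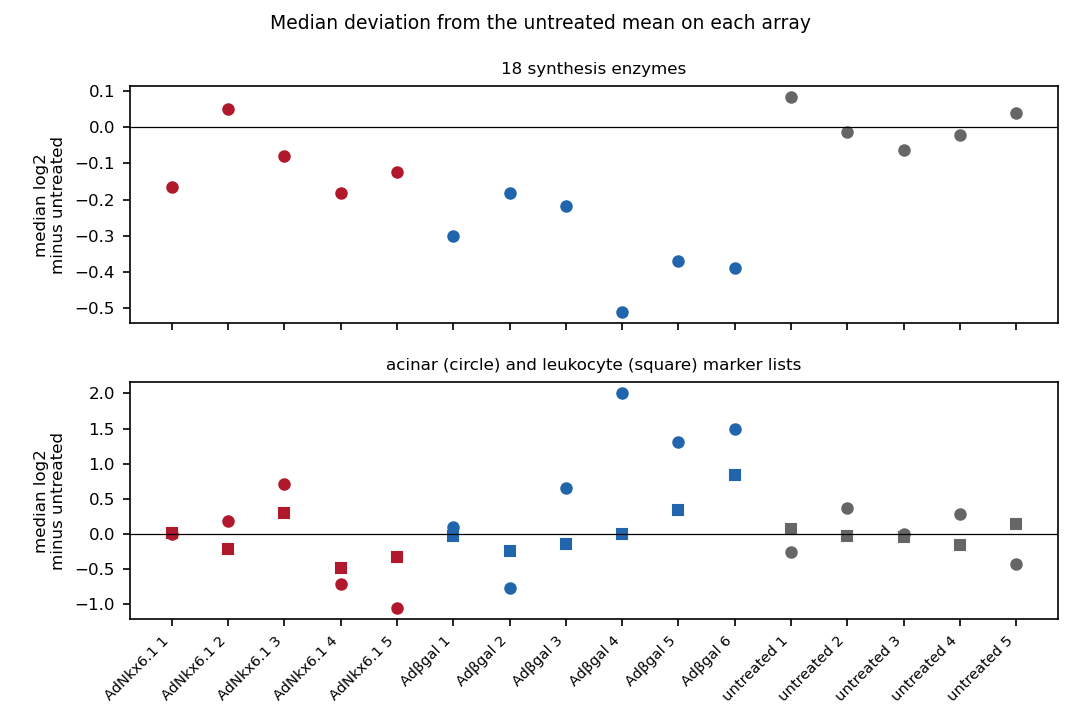
Median log2 deviation from the untreated mean on each array, for the 18 measured synthesis enzymes (top) and for the acinar and leukocyte marker lists (bottom). Enzyme medians are at -0.51 to -0.18 on the Adβgal arrays, below all untreated arrays, and acinar medians reach 2.00 on Adβgal replicate 4.

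AdNkx6.1 against untreated asks how islets with the factor differ from islets without virus. It shares its arrays with both comparisons above, so its results are not independent of theirs. Of the 28 members, 7 were higher, 7 were lower and 14 did not pass. The shares of all genes were 16.9% higher and 13.8% lower, against 25% in each direction among the members. The median log2 change of the members was -0.11, against -0.01 over all genes. The groups did not overlap for 7 members above (17.4% of all genes) and 6 below (14.7%).

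The 18 synthesis enzymes were split, with 6 higher, 5 lower and 7 not passing. Among those that rose, Mvk was 2.84-fold higher (95% confidence interval of the log2 change 1.22 to 1.79, adjusted p = 6.4e-07), and its 5 untreated arrays lay at 8.23 to 8.42. Tm7sf2 changed by 1.04 ± 0.11 (2.06-fold, adjusted p = 4.7e-06), against untreated arrays at 9.55 to 9.81. Pmvk changed by 0.62 ± 0.11 (adjusted p = 0.00034), against untreated arrays at 10.50 to 10.81. In all 3 of these every AdNkx6.1 array was above every untreated array.

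The other 3 rose by less. Mvd changed by 0.34 ± 0.09 (adjusted p = 0.007) and its groups touched without overlapping, at 9.76 and above with AdNkx6.1 and 9.75 and below in untreated islets. Dhcr7 changed by 0.31 ± 0.09 (adjusted p = 0.02) and Ebp by 0.29 ± 0.10 (adjusted p = 0.042). The Dhcr7 call was lost without AdNkx6.1 1 (adjusted p = 0.054) or untreated 3 (adjusted p = 0.057). The Ebp call was lost without any 1 of untreated 2 to 5, AdNkx6.1 2 to 5 or Adβgal 2. After a further quantile normalization Mvd had an adjusted p of 0.062 and Ebp of 0.092.

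Of the 5 enzymes that fell, 3 act together in C4 demethylation. Hsd17b7 had 8.37, 8.50, 7.91, 8.24 and 8.09 with AdNkx6.1, against the narrow untreated range of 8.95 to 9.01, a change of -0.76 ± 0.19 (adjusted p = 0.0056). Nsdhl changed by -0.59 ± 0.08 (1.51-fold lower, adjusted p = 3.1e-05) and Msmo1 by -0.44 ± 0.13 (adjusted p = 0.016). In all 3 the AdNkx6.1 arrays lay below the untreated arrays. Idi1 had 10.99, 11.34, 10.99, 10.92 and 11.09 with AdNkx6.1, below all untreated arrays, with a change of -0.55 ± 0.13 (adjusted p = 0.0045). Cyp51, the lanosterol demethylase, changed by -0.32 ± 0.09 (adjusted p = 0.016), and its second probe set, tested on its own, by -0.52 (adjusted p = 0.00024). Tm7sf2, which reduces the product of Cyp51, was thus higher while the enzymes on either side of it in the usual order, Cyp51 and Msmo1, were lower.

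**Figure D4:**
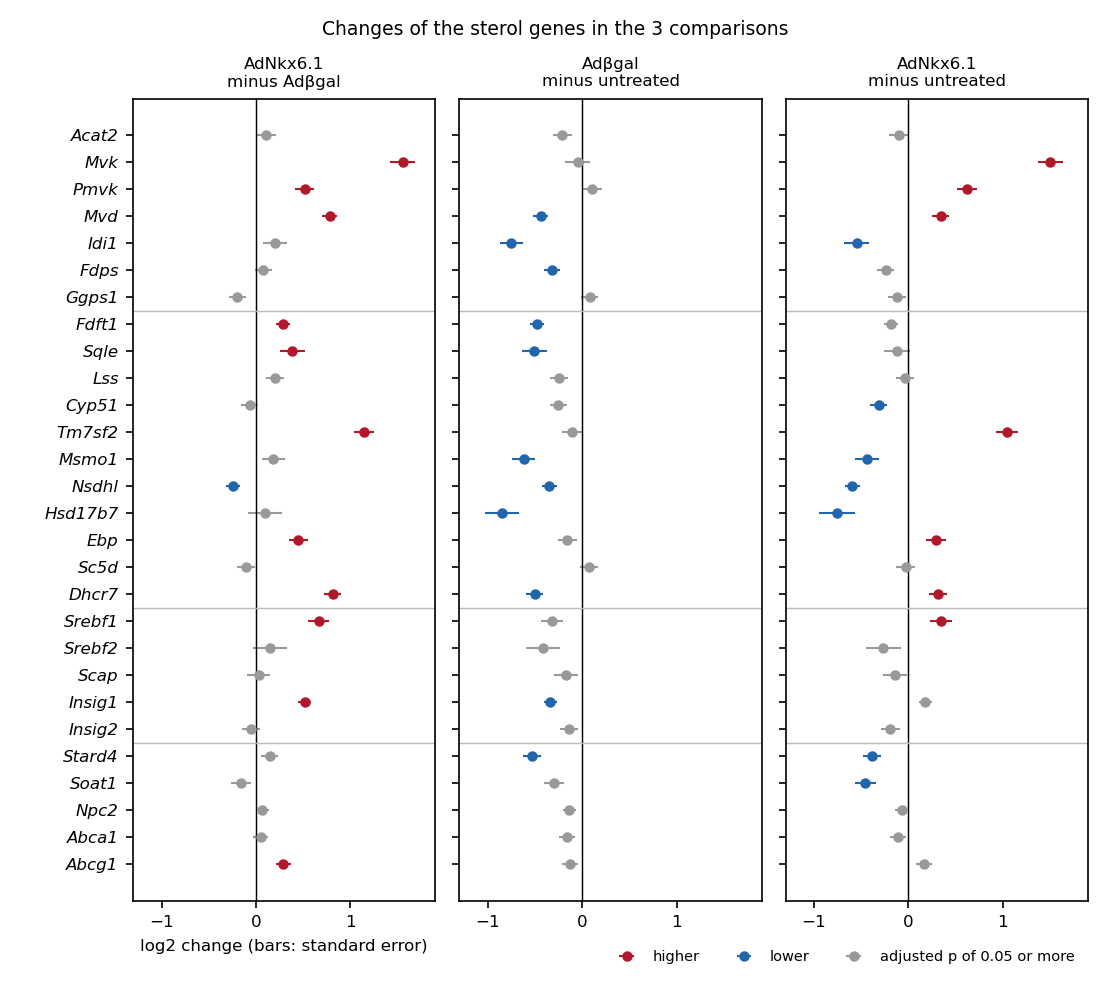
Log2 change of each of the 28 measured members in the 3 comparisons, with the standard error as a bar; red and blue mark an adjusted p under 0.05. Calls are mostly higher in the left panel (11 of 12), all lower in the middle panel (11 of 11), and split in the right panel (7 and 7).

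In the control and handling genes Srebf1 rose by 0.35 ± 0.12 (adjusted p = 0.037), a call lost without any 1 of untreated 1, 3, 4 or 5 or AdNkx6.1 1, 2, 4 or 5. Without untreated replicate 3, Ebp, Dhcr7 and Srebf1 were all lost and 4 members were higher. Soat1 had 11.81, 12.07, 12.36, 11.60 and 11.97 with AdNkx6.1, against 12.27, 12.39, 12.33, 12.59 and 12.50 in untreated islets. AdNkx6.1 replicate 3 lay among the untreated arrays and the other 4 below them, with a change of -0.46 ± 0.11 (adjusted p = 0.0051). Stard4 changed by -0.38 ± 0.10 (adjusted p = 0.0073), with AdNkx6.1 replicate 2 reaching the untreated range. Srebf2 (-0.27 ± 0.19), Scap (-0.14 ± 0.13), Insig1 (0.18 ± 0.07, adjusted p = 0.06) and Insig2 (-0.19 ± 0.10) did not pass, nor did Abca1 (-0.11 ± 0.08), Abcg1 (0.16 ± 0.09) and Npc2 (-0.07 ± 0.07). Of the enzymes, Fdps (-0.24 ± 0.09, adjusted p = 0.056), Fdft1 (-0.19 ± 0.08, adjusted p = 0.082), Sqle, Lss, Acat2, Ggps1 and Sc5d did not pass. Fdps passed without Adβgal 4 (adjusted p = 0.016) or Adβgal 5 (adjusted p = 0.049). Fdft1 passed without untreated 3 (adjusted p = 0.041) and Insig1 without AdNkx6.1 4 (adjusted p = 0.041). Without Adβgal replicates 4 to 6, Fdps (adjusted p = 0.0094), Fdft1 (0.048), Insig1 (0.044), Insig2 (0.025) and Abcg1 (0.048) passed. A fit of these 2 groups alone added Fdps, Insig1, Insig2 and Abcg1 (0.015 to 0.039). The intensity filter and other variance model each added Fdps and Insig1 (0.031 to 0.049). Quantile normalization added Insig1 (0.025). Averaged probe sets added Fdft1 (0.027) and lost Srebf1 (0.06), and the replicate block lost Msmo1, Ebp and Srebf1. Beta cell markers moved with this comparison: 4 of 6 measured were lower with AdNkx6.1, at summed intensities of 90862 to 107924, against 107254 to 120320 in untreated islets. So did other lists: 3 of 4 other endocrine markers and 3 of 10 leukocyte markers were lower, and 2 of 5 duct markers were higher. Summed duct intensities were 32492 to 36250 with AdNkx6.1, against 25147 to 28519 in untreated islets. The duct markers Cftr (4.68 against 5.04) and Spp1 (12.31 against 12.37) had lower means with AdNkx6.1. The part of these lists was not tested.

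Across the 3 comparisons Acat2, Ggps1, Lss, Sc5d, Srebf2, Scap, Insig2, Npc2 and Abca1 passed in none, by the chosen probe set over all arrays. The second Insig2 probe set, tested on its own, was lower in AdNkx6.1 against untreated (-0.22, adjusted p = 0.047). With all probe sets of a gene averaged, Abca1 (-0.52, adjusted p = 0.045), Srebf2 (-0.34, adjusted p = 0.034) and Cyp51 (-0.25, adjusted p = 0.035) also passed in Adβgal against untreated. Set side by side, Mvd changed by 0.78 in AdNkx6.1 against Adβgal, by -0.44 in Adβgal against untreated and by 0.34 in AdNkx6.1 against untreated. Nsdhl changed by -0.25, -0.35 and -0.59 in the same order of comparisons. These comparisons share arrays, and no relation between them was tested.

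A wider list of 43 sterol pathway genes outside the 30 held, among others, lipoprotein receptors, proteases, ubiquitin ligases, oxysterol enzymes and prenylation genes, of which 35 were measured. In AdNkx6.1 against Adβgal 4 were higher (11.4%) and 2 lower (5.71%), below the shares of all genes (16.6% and 8.48%). Those higher were the HDL receptor gene Scarb1 (0.49 ± 0.11, adjusted p = 0.0031), Mylip, a ligase that marks the LDL receptor for degradation (0.45 ± 0.09, adjusted p = 0.0017), the ligase gene Rnf139 (0.43 ± 0.07, adjusted p = 3e-04) and the acetoacetate-activating enzyme Aacs (0.40 ± 0.13, adjusted p = 0.037). Those lower were Mbtps2, the protease that makes the final SREBP cleavage (-0.28 ± 0.09, adjusted p = 0.028), and the dolichol synthesis gene Dhdds (-0.20 ± 0.07, adjusted p = 0.04). In Adβgal against untreated 1 was called in each direction (2.86%, against 2.84% higher and 4.17% lower over all genes). Lcat, a plasma cholesterol esterifying enzyme, was higher (0.85 ± 0.25, adjusted p = 0.047) and Aacs lower (-0.60 ± 0.13, adjusted p = 0.015). In AdNkx6.1 against untreated 5 were higher (14.3%, against 16.9% of all genes) and 3 lower (8.57%, against 13.8%). Those higher were Lcat, Cyp27a1, Mylip, Rnf139 and Stard3, by 0.23 to 0.86, and those lower were the receptor gene Vldlr (-0.46 ± 0.12, adjusted p = 0.0072), Mbtps2 (-0.39 ± 0.09, adjusted p = 0.0037) and Erlin1 (-0.31 ± 0.09, adjusted p = 0.021). The list's median changes were 0.04, -0.10 and -0.04 in the order of comparisons above, against 0.02, -0.04 and -0.01 over all genes.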

How the data were processed

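RNA of 16 arrays was compared. The authors deposited an intensity for each probe set, not in log form; the submitters' processing notes name RMA, whose version is not given in the sources used here. Log2 of each deposited intensity was taken, without a pseudocount. Of 31099 probe sets, 57 controls were left out and 20826 were annotated with 1 symbol (436 with several, 9780 with none), giving 14217 genes by the probe set of highest mean. Tests used lmFit, contrasts.fit and eBayes of limma 3.58.1 (R 4.3.3), with 1 fit over the 3 groups, 2-sided, with Benjamini-Hochberg adjustment over all genes and a threshold of 0.05; changes are the first group minus the second. The script was tested on simulated data. The members, the wider list and the marker lists were chosen with earlier results of these data known, and no count over them is adjusted over a list alone. All members could be named, and wider-list genes past the threshold (up to 8 per comparison). Motifs were searched in RefSeq promoter windows. Alternatives were another normalization, probe set rule, intensity filter, variance model, replicate block and arrays left out; testing each probe set was added after seeing the data. Array number limits precision; dim probe sets were kept.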

Additional observations from a re-analysis of the deposited data

Results flagged for a closer look

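A gap test within each group of arrays (Dixon's test) was made for 84 gene-by-group sets of the 28 members, and for 6 sets of array medians. It marked 6 of the 90; chance marks about 1 in 20. With AdNkx6.1, Ggps1 was high on replicate 3 (log2 intensity 11.22, next 10.94) and Msmo1 low on replicate 1 (10.64, next 10.91). With Adβgal, Npc2 was low on replicate 4 (13.09, next 13.41). In untreated islets Mvd was high on replicate 1 (9.75, next 9.59), Lss was high on replicate 2 (10.91, next 10.78) and Abcg1 was low on replicate 1 (12.49, next 12.65).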

How the results depend on the processing

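Over all members, comparisons and alternatives 1883 log2 changes kept their direction and side of the threshold, 77 lost and 31 gained a call, and 25, none of them called, changed sign. Of these, in AdNkx6.1 against Adβgal, Hsd17b7 was at -0.023 and Scap at -0.001 after quantile normalization; without Adβgal replicates 4 to 6 Idi1 was at -0.043, Fdps -0.032, Msmo1 -0.018, Hsd17b7 -0.077, Srebf2 -0.148 and Scap -0.01. In Adβgal against untreated, Sc5d was at -0.102 with probe sets averaged, Mvk at 0.037 with the replicate block, and without those arrays Mvk was at 0.105 and Insig2 at 0.022. In AdNkx6.1 against untreated, averaging gave Lss 0.007 and Scap 0.005. With 1 array left out, those that changed sign ranged, in AdNkx6.1 against Adβgal, from -0.047 to 0.13 (Scap), -0.011 to 0.101 (Abca1), -0.015 to 0.21 (Hsd17b7) and -0.006 to 0.232 (Srebf2); in Adβgal against untreated from -0.122 to 0.037 (Mvk); and in AdNkx6.1 against untreated from -0.1 to 0.047 (Lss) and -0.08 to 0.047 (Sc5d). In AdNkx6.1 against Adβgal, members lower numbered 0 with only the 2 groups fitted and 3 without Adβgal replicates 4 to 6, against 1. In Adβgal against untreated, members lower numbered 7 without those arrays, against 11. With the replicate number as a block they also numbered 7; same-numbered arrays did not consistently deviate together (correlations -0.387 to 0.249), so the numbers were not taken as pairs. Wider-list genes called in AdNkx6.1 against Adβgal were 3 with 2 groups and 10 without those arrays (6 as reported). In Adβgal against untreated they were 1 after quantile normalization, 1 with 2 groups, 0 with the block and 0 without those arrays (2). In AdNkx6.1 against untreated they were 13 with 2 groups and 14 without those arrays (8). Over the whole table Adβgal against untreated gave 521 genes with 2 groups, 393 with the block and 552 without those arrays (997). With 1 array left out, members higher and lower were 10 to 12 and 0 to 1, then 0 and 9 to 12, then 4 to 7 and 7 to 8, in the order of comparisons above; wider-list genes were 3 to 8, 1 to 4 and 5 to 12; and all genes 2783 to 3933, 509 to 1503 and 3558 to 5069. Causes were not tested.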

Other observations

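Abca1, the sterol exporter, was read by 4 probe sets that differed in Adβgal against untreated; they were singled out after their values were seen. The brightest, used above, changed by -0.16 ± 0.08 (adjusted p = 0.24 when each probe set was tested on its own). A dimmer one had mean log2 intensities of 10.27 with Adβgal and 10.67 untreated (-0.40 ± 0.11, adjusted p = 0.03). Another had 7.80 and 8.72 (-0.92 ± 0.20, adjusted p = 0.012), and the fourth gave -0.60 ± 0.47 (adjusted p = 0.46). Their average changed by -0.52 (adjusted p = 0.045). Over all members, the sign of the chosen probe set was shared by 22, 20 and 20 of 24 other probe sets in AdNkx6.1 against Adβgal, Adβgal against untreated and AdNkx6.1 against untreated. One Sc5d probe set was lower with AdNkx6.1 than in untreated islets (-0.41 ± 0.11, adjusted p = 0.014), while the chosen one was at -0.03 ± 0.10.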
